A study of Mus musculus with 9 samples.

Results

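Gene expression was compared between Runx2 knockdown and control cultures of differentiating osteoblasts at day 9. MC3T3-E1 subclone 4, a preosteoblast line from mouse calvaria, was infected with lentivirus for a short hairpin RNA (shRNA), whose sequence was either scrambled (Scr) or directed against Runx2 (shRunx2). Infected cells of either kind were sorted for the green fluorescent protein (GFP) of the virus, grown to near confluence, and held for 9 days in medium with ascorbic acid and beta-glycerophosphate, which induces osteogenic differentiation. All groups thus carried a lentiviral shRNA and a GFP sort. The comparison rests on 6 of the 9 arrays of the series, 3 shRunx2 and 3 Scr arrays of day 9, which the labels call biological replicates. The other 3 arrays are Scr cells at day 0, before differentiation. The study describes a single hairpin against Runx2, so effects of lower Runx2 and other effects of that hairpin cannot be told apart here.

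Runx2 is a DNA-binding transcription factor without which bone is not formed. It acts together with its partner Cbfb on genes of the mineralizing matrix, such as those for bone sialoprotein and collagenase. Another set of genes that recurs below is the interferon response. In that pathway, type I interferons bind the receptor Ifnar1/Ifnar2, the kinases Jak1 and Tyk2 are activated, and a complex that holds Stat2 and Irf9 binds the interferon-stimulated response element of antiviral genes. Many of the proteins that detect viral RNA or relay the signal are themselves products of such genes.

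Each sample was hybridized to its own Affymetrix Mouse Gene 1.0 ST array. Values are log2 expression levels made by robust multi-array average (RMA), a method that corrects background, brings arrays to a common distribution and combines the probes of a gene into a single value. There is no read depth on arrays, so precision is set by how many there are. Levels of different genes are not comparable, since probes differ in brightness. Probe sets with a single gene symbol covered 19937 genes, and all of them were compared. The median level per array at day 9 lay between 8.466 and 8.51, and the lowest correlation between arrays of a group (0.9981) exceeded the highest between an Scr and an shRunx2 array (0.9969). Runx2 itself is not analysed here, and so no level of knockdown is given.

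Differences were tested with limma, and p values were adjusted over all genes (Benjamini-Hochberg). A gene is said to have risen or fallen at an adjusted p under 0.05, and is called higher or lower where the change was also at least 1.5-fold. In the text, per-array values are given on the log2 scale for replicates 1, 2 and 3 in that order, and a log2 change is shRunx2 minus Scr with its standard error (SE).

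Fewer genes were higher than lower in shRunx2 cells, but the larger changes were mostly increases. At any size 544 genes rose (2.73% of those tested) and 930 fell (4.66%), so increases made up 36.9% of the genes that passed. Most of the decreases were small, and at 1.3-fold or more the split was 173 higher and 142 lower. At 1.5-fold or more 79 genes were called higher (0.396%) and 39 lower (0.196%), at 2-fold or more 32 were higher and 5 lower, and at 3-fold or more 10 were higher and 1, Phex, lower. In each of these 118 called genes the 3 arrays of one group lay beyond the 3 of the other, which was also so for 1662 genes upward (8.34%) and 3054 downward (15.3%) among all genes. Over all genes the median log2 change was -0.0041, and 52.1% of genes had a value below 0. The split at any size moved with the scaling: after centring each array on its median 428 genes rose and 1175 fell. Single arrays also moved these counts. Without replicate 2 of Scr 355 rose and 503 fell, and without replicate 1 of Scr or of shRunx2 562 and 507 fell. The counts of called genes were steadier, at 73 to 85 higher and 33 to 46 lower when any 1 of the 9 arrays was left out. At the 1.5-fold limit, Cxcl9 (1.5-fold higher), Sesn1 and Rerg (1.51-fold lower each) lay just inside, and Elp4 (1.5-fold lower), Sparcl1 (1.5-fold higher) and Met (1.49-fold higher) just outside.

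**Figure D1:**
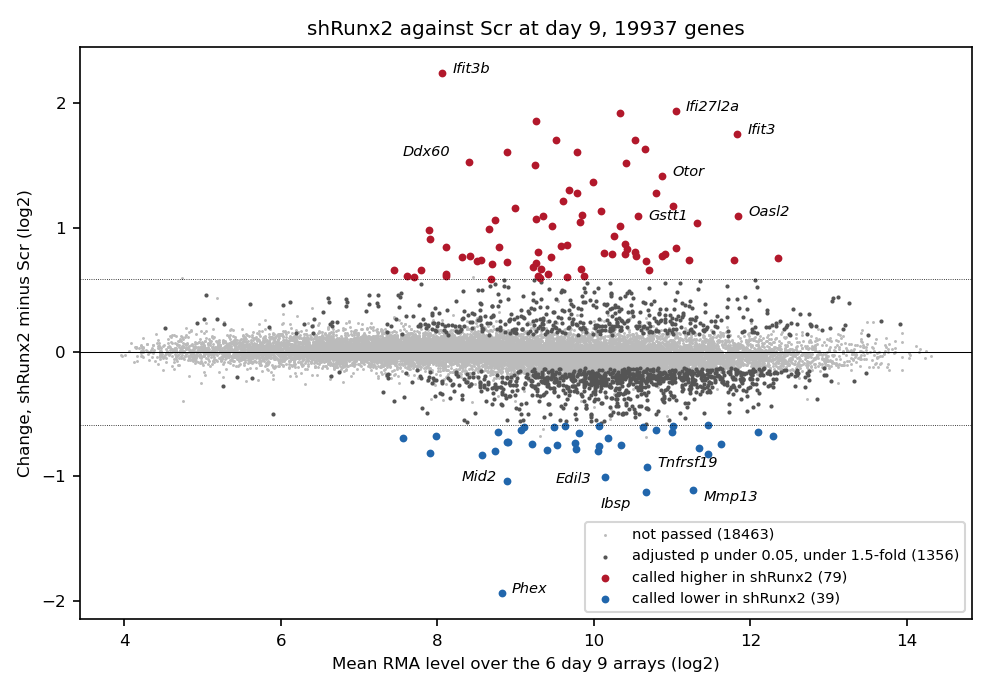
Log2 change between shRunx2 and Scr cells at day 9 (vertical axis) against the mean RMA level over the 6 day 9 arrays (horizontal axis), with 1 point per gene and dotted lines at 1.5-fold. The 79 genes called higher (red) reach further from 0 than the 39 called lower (blue), apart from Phex at -1.94.

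Genes of the interferon response were prominent among those called higher in shRunx2 cells. In 9 lists that cover signal transcription factors, nucleic acid sensors, antiviral effectors, TRIM proteins, antigen processing and chemokines, 194 genes were measured. Of these, 87 rose, 5 fell and 102 did not pass, and 43 of the 79 genes called higher were among them, while none of the 39 called lower was. The TRIM list did not hold Mid2, a TRIM-family gene that was called lower. Over the 194 genes the median log2 change was 0.1463. The 43 were picked for being higher in shRunx2 cells on these same arrays, so the gap in their means follows from that choice. Averaged over these 43 genes, the level was 9.39, 9.25 and 9.15 on the Scr arrays and 10.38, 10.50 and 10.38 on the shRunx2 arrays. These means spread more widely among the Scr arrays than among the shRunx2 arrays. In 41 of the 43 the highest Scr value was that of replicate 1, and in 36 the lowest was that of replicate 3. No Scr value reached the shRunx2 range in any of them, as was so for every called gene. At day 0 the same mean was 8.49 to 8.54.

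The ligands that start this pathway did not move with its target genes. None of the 15 measured interferon genes passed the test, with log2 changes from -0.07 (Ifng and Ifnk) to 0.18 (Ifna9), although 3 were higher at an unadjusted p under 0.05 in limma. They were Ifnb1, Ifna2, Ifna4, Ifna5, Ifna9, Ifna11, Ifna12, Ifna13, Ifna14, Ifna16, Ifnab, Ifne, Ifnk, Ifng and the lambda interferon gene Ifnl2. Ifnb1, the type I interferon that nucleated cells make first, read 7.05, 7.22 and 7.19 in Scr and 7.25, 7.19 and 7.18 in shRunx2 cells (log2 change 0.05 ± 0.060, adjusted p = 0.718). Its groups overlapped, and at day 0 it lay between 7.14 and 7.34. RMA gives no call of presence, so whether any of these genes was expressed cannot be read from the level. Among 6 receptor subunits the range was -0.12 to 0.20. Ifnar1 gave -0.12 ± 0.044 (adjusted p = 0.139), and Ifnar2 0.01 ± 0.036 (adjusted p = 0.927). Ifngr1, Ifnlr1 and Il10rb did not pass either. Ifngr2, a chain of the interferon gamma receptor, rose by 0.20 ± 0.041 (adjusted p = 0.0127, and 0.0542 without replicate 2 of shRunx2). Of the kinases Jak1, Jak2 and Tyk2, Jak1 fell by 0.16 (adjusted p = 0.0383), a call that was lost without any 1 of the day 9 arrays (adjusted p from 0.0575 to 0.118) or without replicate 2 of day 0 (0.0509).

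Among 14 transcription factors of the STAT and IRF families, 4 rose, and 3 of them were called higher. Irf7, the factor that amplifies type I interferon expression, read 9.11, 9.09 and 8.80 on the Scr arrays and 10.16, 10.43 and 10.05 on the shRunx2 arrays. The groups stood apart by more than the spread within either, and the rise was 2.32-fold (log2 change 1.21 ± 0.099, adjusted p = 2.38e-05). Stat2 and Irf9 encode parts of the complex that type I interferon activates. Stat2 read 10.39, 10.34 and 10.17 in Scr and 10.97, 11.09 and 11.03 in shRunx2 cells, 1.66-fold higher. Irf9 read 9.91, 9.88 and 9.72 against 10.58, 10.70 and 10.60, 1.73-fold higher (adjusted p = 8.5e-06). Irf5 rose by less (1.22-fold). Irf3 and Irf2 had log2 changes of -0.19 ± 0.044 and -0.20 ± 0.051 and passed with all arrays (adjusted p = 0.0266 and 0.0429), but the count of members that fell was 0 without replicate 1 of Scr or replicate 1 or 2 of shRunx2 and 1 without any other single array except replicate 3 of Scr. The median of the list was -0.00351.

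Sensors of foreign nucleic acid rose broadly. Of 17 measured, 10 rose (4 of them were called higher), 7 did not pass and none fell, with a median log2 change of 0.318. Zbp1, which binds Z-form nucleic acid, read 9.21, 9.12 and 9.09 in Scr and 10.39, 10.51 and 10.35 in shRunx2 cells, a 2.43-fold difference with little spread in either group. The cytosolic RNA helicases rose together. Dhx58 rose from 9.45, 9.30 and 9.16 to 10.35, 10.50 and 10.37 (log2 change 1.1 ± 0.069), and Ifih1 from 9.00, 8.89 and 8.76 to 9.69, 9.76 and 9.61 (1.75-fold). Ddx58, which encodes RIG-I, rose 1.44-fold, and Adar, an RNA editing enzyme with an interferon-inducible form, 1.3-fold. Mavs, the adaptor through which these helicases signal, had a log2 change of -0.07, and the DNA sensor Cgas one of 0.05, and neither passed. Ddx60, a helicase linked to RIG-I signaling that stood in no list, read 7.73, 7.73 and 7.46 against 9.05, 9.41 and 9.05 (2.88-fold, adjusted p = 3.89e-06).

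Effector genes held the largest increases. In the IFIT and OAS families, whose products bind or degrade viral RNA or shut off its translation, 11 of 16 rose, 6 of them at least 1.5-fold, and none fell (median 0.332). Of the 7 members whose mean over all 9 arrays was above the median of all genes, 6 rose. That mean includes the shRunx2 arrays, so a member can be held because it rose, and the share is no separate support. Ifit3b read 7.05, 6.97 and 6.78 in Scr and 9.24, 9.22 and 9.06 in shRunx2 cells (4.73-fold), and Ifit3 11.05, 10.97 and 10.85 against 12.71, 12.74 and 12.68 (3.37-fold). Ifit1 read 9.93, 9.68 and 9.43 against 11.31, 11.41 and 11.41 (3.25-fold). The synthetase gene Oas2, whose product makes the 2'-5' oligoadenylate that activates RNase L, read 9.58, 9.41 and 9.12 against 11.20, 11.45 and 11.22 (3.78-fold). Scr replicate 1 was the highest of its group in all 4, and the shRunx2 arrays lay at least 1 log2 unit above it. Oas1b, a 2'-5'-oligoadenylate synthetase homologue, rose from 8.53, 8.38 and 8.33 to 9.52, 9.59 and 9.60 (2.23-fold), and Oasl2 from 11.42, 11.35 and 11.13 to 12.30, 12.50 and 12.37 (2.13-fold). In each of these the lowest shRunx2 value was above the highest Scr value, as was so for every gene called higher. Ifit3 and Ifit3b are close copies whose promoter sequences below are identical, and their probes may not be specific to either.

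Interferon-inducible GTPases, which coat membranes around pathogens, had the highest median of the lists examined. Of 14, 12 rose and 8 were called higher, none fell, and the median log2 change was 0.869. Gm12250 read 8.81, 8.60 and 8.55 in Scr and 10.32, 10.33 and 10.44 in shRunx2 cells (3.27-fold), and Iigp1, a GTPase that damages the vacuoles of parasites, 9.22, 8.87 and 8.85 against 10.59, 10.55 and 10.61 (3.05-fold). The shRunx2 arrays of both were close to each other. Gbp7 read 9.39, 9.29 and 9.23 in Scr and 10.57, 10.71 and 10.71 in shRunx2 cells (2.57-fold). Gbp3 read 8.78, 8.70 and 8.69 against 9.77, 9.89 and 9.71 (2.10-fold). Gm4951, an immunity-related GTPase, read 9.92, 9.62 and 9.42 against 11.16, 11.18 and 11.19 (2.87-fold), so its shRunx2 arrays were nearly equal while the Scr arrays spread. The dynamin-like GTPase genes Mx1 (1.97-fold) and Mx2 (1.87-fold) rose, as did Irgm1 (1.78-fold). Of the 8 members whose mean over all 9 arrays was above the median of all genes, 7 rose. Here too the shRunx2 arrays enter that mean, so the share is no separate support.

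A list that joins conjugation of the ubiquitin-like protein ISG15 with interferon-linked poly-ADP-ribose polymerases had 10 rises among 12 genes (4 called higher, median 0.414). Usp18, which removes ISG15 and restrains interferon signaling, read 10.07, 9.91 and 9.56 in Scr and 11.34, 11.63 and 11.45 in shRunx2 cells (3.09-fold). The rises also included Ube2l6, the conjugating enzyme (1.67-fold), and Herc6, a ligase (1.72-fold). The poly-ADP-ribose polymerase genes Parp14 (1.70-fold), Parp9 (1.47-fold) and Parp12 (1.36-fold) were also among the 10. Of 33 other antiviral effectors 20 rose and 11 were called higher (median 0.247). Ifi27l2a, a small membrane protein induced by interferon, read 10.36, 10.10 and 9.77 in Scr and 11.88, 12.07 and 12.08 in shRunx2 cells (3.83-fold). The Scr arrays of this gene spread over more than the shRunx2 arrays did and stayed below all of them. Phf11d read 8.42, 8.31 and 8.27 against 10.11, 10.26 and 10.21 (3.62-fold). Bst2 encodes tetherin, a membrane protein that holds budding virus at the cell surface. It read 10.52, 10.46 and 10.31 in Scr and 11.51, 11.73 and 11.57 in shRunx2 cells (2.25-fold). Sp100, a component of nuclear bodies, rose from 9.22, 9.00 and 8.87 to 10.34, 10.43 and 10.22 (2.46-fold), and Rtp4 from 10.35, 10.18 and 9.93 to 11.43, 11.52 and 11.36 (2.43-fold). Rsad2, which encodes viperin, was 1.79-fold and its neighbour Cmpk2 1.66-fold higher. The Schlafen genes Slfn8, which read 8.78, 8.47 and 8.22 against 10.03, 9.90 and 10.04 (2.83-fold), and Slfn2 (2.08-fold) rose. Their relative Slfn5 had a log2 change of -0.01 ± 0.036.

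**Figure D2:**
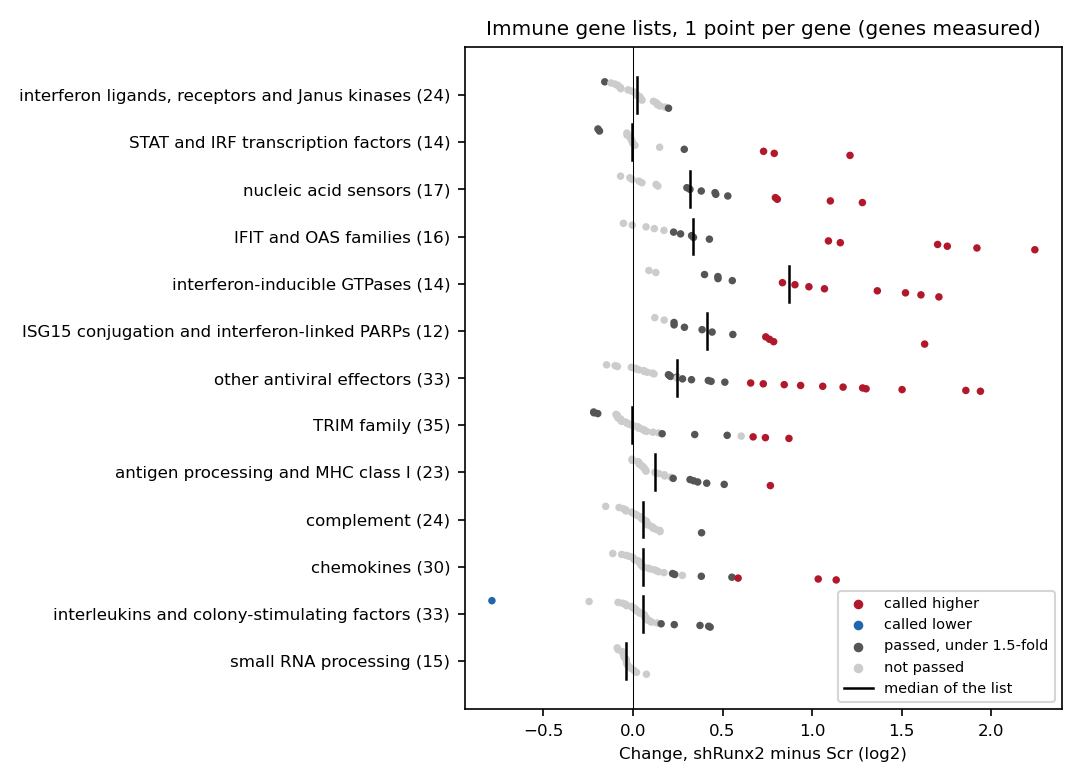
Log2 change between shRunx2 and Scr cells at day 9 (horizontal axis) for every measured gene of 13 immune and RNA processing lists, with 1 point per gene, the number measured in parentheses and a black bar at the list's median. Called genes (red) lie at the upper end of the sensor and effector lists, 4 of 17 sensors and 8 of 14 GTPases among them, whereas the interferon ligand and receptor list stays between -0.16 and 0.20.

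Of 35 TRIM genes, a large family of ubiquitin ligases of which some act against viruses, 6 rose and 3 were called higher. These were the neighbours Trim30a (1.67-fold) and Trim30d (1.83-fold), and Trim12a (1.59-fold). Trim34a (1.44-fold) and Trim21 (1.27-fold) rose by less, and the median of the list was -0.00428. Up to 3 members fell, but none did without replicate 2 of Scr. Mid2, a gene of the same family that this list did not hold, was called lower (2.05-fold). Antigen processing genes moved less than the sensors, with 7 of 23 higher, none lower and a median of 0.122. They were led by the immunoproteasome subunits Psmb9 (1.33-fold) and Psmb8 (1.42-fold), the class I gene H2-Q4 (1.70-fold, the 1 member called) and the peptide trimmer Erap1 (1.26-fold). Class II genes are usually restricted to immune cells. The class II chain gene H2-Aa, which stood in no list, read 7.39, 7.39 and 7.42 in Scr and 7.86, 7.98 and 8.17 in shRunx2 cells (1.52-fold, and 1.437-fold without replicate 3 of shRunx2). The invariant chain gene Cd74 was 1.44-fold higher. Both were named after their values were seen, and other class II genes are not given here.

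Secreted immune signals were mixed. Of 30 chemokine genes 7 rose, none fell and 3 were called higher. Cxcl10, an attractant of T cells induced by interferon, read 9.56, 9.55 and 9.46 in Scr and 10.54, 10.81 and 10.63 in shRunx2 cells (2.19-fold). Ccl5 read 10.89, 10.75 and 10.75 against 11.75, 11.94 and 11.80 (2.05-fold), and Cxcl9 8.43, 8.37 and 8.36 against 8.95, 9.02 and 8.95 (1.5-fold, and 1.49-fold without replicate 2 or 3 of Scr). All 3 stood clear of the Scr range, as did every gene called higher. Of 24 complement genes 1 rose, Cfb (1.3-fold), which encodes factor B. Among 33 interleukins and colony-stimulating factors 5 rose (3 without replicate 3 of Scr or without replicate 2 or 3 of shRunx2), led by Il17d (1.34-fold). The alarmin gene Il33 went the other way, from 10.09, 9.67 and 9.61 to 8.99, 9.01 and 9.01 (1.73-fold lower, adjusted p = 0.000591). Its Scr replicate 1 was the highest, by more than the rest of the group spread. None of the 15 genes for small RNA processing, the machinery that handles hairpin RNA, rose or fell, with log2 changes from -0.09 to 0.07, and none did at an unadjusted p under 0.05 in limma either.

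**Figure D3:**
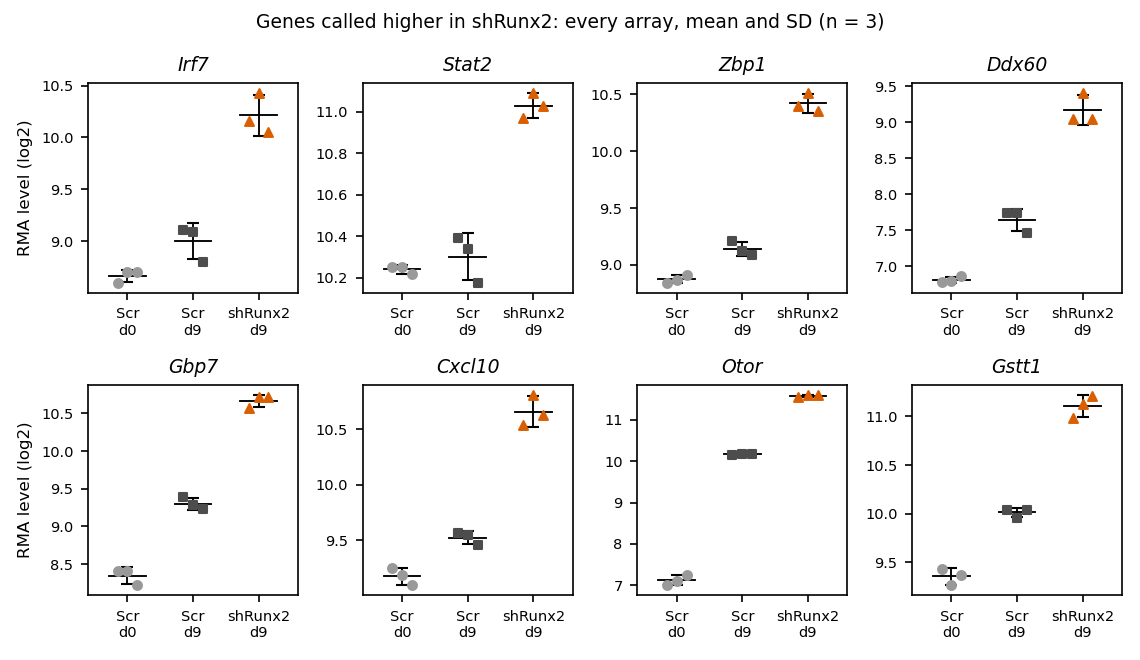
Each panel gives a gene called higher in shRunx2 cells (8 genes), with RMA log2 level on the vertical axis and the groups on the horizontal axis: Scr at day 0 (d0), Scr at day 9 (d9) and shRunx2 at day 9. Points are single arrays, and the lines mark mean and SD (n = 3). In each panel the 3 shRunx2 arrays lie above all 3 Scr arrays of day 9, Otor from 10.15 to 10.17 in Scr up to 11.55 to 11.60.

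Promoter sequences were examined because so many of the rising genes belong to a known response. RefSeq promoter windows on build GRCm38.p6, which run from 250 bases before to 50 after the start of a gene, were found for 57 of the 79 genes called higher and 33 of the 39 called lower. They were searched on both strands for the letters GAAA, any pair of bases and GAAA again, the core of the interferon-stimulated response element. That core was present in 22 of the 57 genes called higher (38.6%) and 1 of the 33 called lower (3.03%), against 3.89% of all 15562 genes with a window. Counted by window, it was present in 35.8% of 67 windows of genes called higher, 2.22% of 45 of genes called lower and 3.27% of all 19115. Among all genes that rose, 12.8% had it. Neighbouring matches can share bases, as in Bst2, Gbp3 and Irgm1. A match describes these letters only and is not a measured binding site. Examples are shown with the core in capitals, on the strand of the gene, to show the letters that these promoters hold.
Ifit1 (chr19:34640775-34640804, plus strand): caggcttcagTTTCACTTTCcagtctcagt
Ifit1 (chr19:34640794-34640823, plus strand): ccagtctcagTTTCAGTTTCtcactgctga
Ifit3 (chr19:34583363-34583392, plus strand): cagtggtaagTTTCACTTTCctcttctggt
Ifit3b (chr19:34607759-34607788, plus strand): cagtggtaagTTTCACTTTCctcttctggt
Gm12250 (chr11:58183742-58183771, plus strand): cctcggtggcTTTCAGTTTCtatgcctaga
Gbp7 (chr3:142530273-142530302, plus strand): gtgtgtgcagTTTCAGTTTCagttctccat
Gbp3 (chr3:142559989-142560018, plus strand): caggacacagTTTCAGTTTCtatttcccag
Stat2 (chr10:128270266-128270295, plus strand): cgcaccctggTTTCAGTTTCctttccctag
Rsad2 (chr12:26456553-26456582, minus strand): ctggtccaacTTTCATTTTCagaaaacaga
Cxcl10 (chr5:92349083-92349112, minus strand): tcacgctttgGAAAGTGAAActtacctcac
Irgm1 (chr11:48871425-48871454, minus strand): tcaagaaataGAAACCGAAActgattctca
Trim30a (chr7:104465210-104465239, minus strand): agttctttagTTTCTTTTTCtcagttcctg
Trim30d (chr7:104507871-104507900, minus strand): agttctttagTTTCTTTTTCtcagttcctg
In most of these lines the core reads TTTC first, which is the element on the opposite strand to the gene. They lie upstream of the start site, 94 and 75 bases in Ifit1, 43 in Gbp7, 35 in Gbp3, 14 in Irgm1 and 203 in Cxcl10. Trim30a and Trim30d, like Ifit3 and Ifit3b, share the printed stretch base for base.

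The Runx core, TGTGGT on either strand, was searched in the same windows and set against the same background. It was present in 17.9% of windows of genes called higher, 11.1% of those called lower and 14.2% of all, so neither class of called genes stood far from the background in this short window. No match of this core overlapped one of the interferon core in a called gene. The genes called lower that held it were Mmp13, Mid2, Slc6a9 and, after its start site, Htra1. The matches before the start site are shown with the core in capitals, and Cxcl9 and Oasl2, called higher, are shown beside them.
Mmp13 (chr9:7272386-7272411, plus strand): tctgccacaaACCACActtaggaaga
Mid2 (chrX:140664928-140664953, plus strand): gaaatgacagTGTGGTgctgcggtgg
Slc6a9 (chr4:117849165-117849190, plus strand): acaagggaacACCACAtcagccccat
Slc6a9 (chr4:117855434-117855459, plus strand): agcctggcgaTGTGGTaggcgtcggg
Cxcl9 (chr5:92328170-92328195, minus strand): acgatcaattTGTGGTtagtttagtt
Oasl2 (chr5:114896818-114896843, plus strand): agttactattTGTGGTgactgtggca
The Mmp13 match ends 112 bases before the start site. Mmp13 was also the 1 gene called lower whose window held the interferon core.

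Some of the genes called higher lay side by side. In gene order on GRCm38.p6, 21 of the 79 lay next to another gene called higher, in 10 runs, and none of the 39 called lower lay next to another of its class. The classes differ in size and no background for neighbours was computed, so these counts do not show a difference between them. The runs included Ifit3 with Ifit3b, Gbp7 with Gbp3, Trim30a with Trim30d, Rsad2 with Cmpk2, Irgm1 with Gm12185, Phf11a with Phf11d, Slfn8 with Slfn10-ps and Slfn2, and Iigp1 with BC023105 (3.05-fold higher). Members of 1 family in a cluster can share probe sequence, and so they are not independent observations. Some runs fell outside the interferon families, namely the glutathione transferase genes Gstt1 and Gstt3 and the pair Scg2 and Ap1s3. The promoter window of Gstt1 nonetheless held the interferon core, 175 bases before its start site.

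Of the 79 genes called higher, 31 were in none of the lists, and several of these are not known as interferon genes. Otor, which encodes a small secreted protein of cartilage and the inner ear, read 10.15, 10.17 and 10.17 in Scr and 11.55, 11.59 and 11.60 in shRunx2 cells (2.66-fold, adjusted p = 1.05e-07), with almost no spread in either group. Its day 0 level was 7.0 to 7.26. Some glutathione transferases, which conjugate glutathione to reactive compounds, were higher. Of 22 measured, a family counted after its values were seen, 4 rose, 18 did not pass and none fell. Gstt1 read 10.04, 9.96 and 10.04 against 10.98, 11.13 and 11.21 (2.13-fold), Gsta4 8.89, 8.72 and 8.82 against 9.74, 10.06 and 9.90 (2.13-fold), and Gstt3 and Gstm1 were 1.52-fold and 1.17-fold higher. The groups did not overlap in any of these 4, as was so for 543 of the 544 genes that rose. In the list for the oxidative stress response, which holds some of these genes, 3 of 27 rose and 1 fell (3 without replicate 2 of shRunx2). Arhgap29 read 9.43, 9.21 and 9.27 against 10.32, 10.35 and 10.36 (2.06-fold), and at day 0 10.87 to 11.09.

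Other genes of this kind had a range of functions. The sodium pump subunit Atp1b1 (2.01-fold), the amine oxidase Aoc3 (2.01-fold) and the surface protein Ly6f (1.98-fold) rose, as did Mustn1 (1.69-fold), a small nuclear protein of muscle and bone, the endothelial lipase Lipg (1.64-fold) and the cytidine deaminase Cda (1.71-fold). Day 0 levels set beside these ran both ways. Ly6f read 8.09 to 8.26 in Scr, 9.14 to 9.16 in shRunx2 and 10.66 to 10.80 at day 0, whereas Mustn1 read 11.93 to 12.02, 12.68 to 12.80 and 10.23 to 10.42.

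Genes of the mineralizing matrix headed the list of decreases. Phex, a membrane endopeptidase of bone cells whose loss causes phosphate wasting, read 9.77, 9.89 and 9.71 in Scr and 7.85, 7.85 and 7.86 in shRunx2 cells. At 3.83-fold it was the largest decrease, and the shRunx2 arrays were nearly equal. Ibsp, bone sialoprotein, read 11.16, 11.27 and 11.26 against 10.14, 10.07 and 10.11 (2.18-fold lower). Alpl, the alkaline phosphatase that frees phosphate for mineral, read 10.07, 9.86 and 9.76 against 9.15 on each shRunx2 array (1.68-fold lower). All stayed above their day 0 levels, which were 7.24 to 7.48 for Phex, 7.41 to 7.52 for Ibsp and 8.39 to 8.59 for Alpl. Of 19 bone matrix and mineralization genes 7 fell (4 without replicate 1 of Scr), none rose, and the median log2 change was -0.0766. Mgp, an inhibitor of calcification, was among those that fell (1.2-fold). The collagen genes Col1a1 and Col1a2 had log2 changes of -0.03 and -0.01 and did not pass. In bulk RNA, fewer cells of a type and less RNA per cell cannot be told apart.

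Osteoblast transcription factors moved by less than 1.5-fold. Of 25, 6 fell (4 or 5 without any single day 9 array) and 2 rose (1 without any single day 9 array). Zfp521, a zinc finger antagonist of Runx2, fell 1.2-fold, Sp7 1.16-fold, Atf4 1.16-fold and Runx1 1.15-fold, whereas Sox11, a factor of early progenitors, rose 1.37-fold. Among receptors through which hormones act on bone, 4 of 25 rose and 4 fell. The parathyroid hormone receptor Pth1r read 9.20, 9.32 and 9.32 against 8.82, 8.84 and 8.93 (1.34-fold lower). The vitamin D receptor Vdr (1.22-fold) and the co-receptor Ramp1 (1.3-fold) fell, and the prostaglandin receptor Ptger1 (1.36-fold), the thyroid hormone receptor Thrb (1.25-fold) and Ramp2 (1.28-fold) rose.

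**Figure D4:**
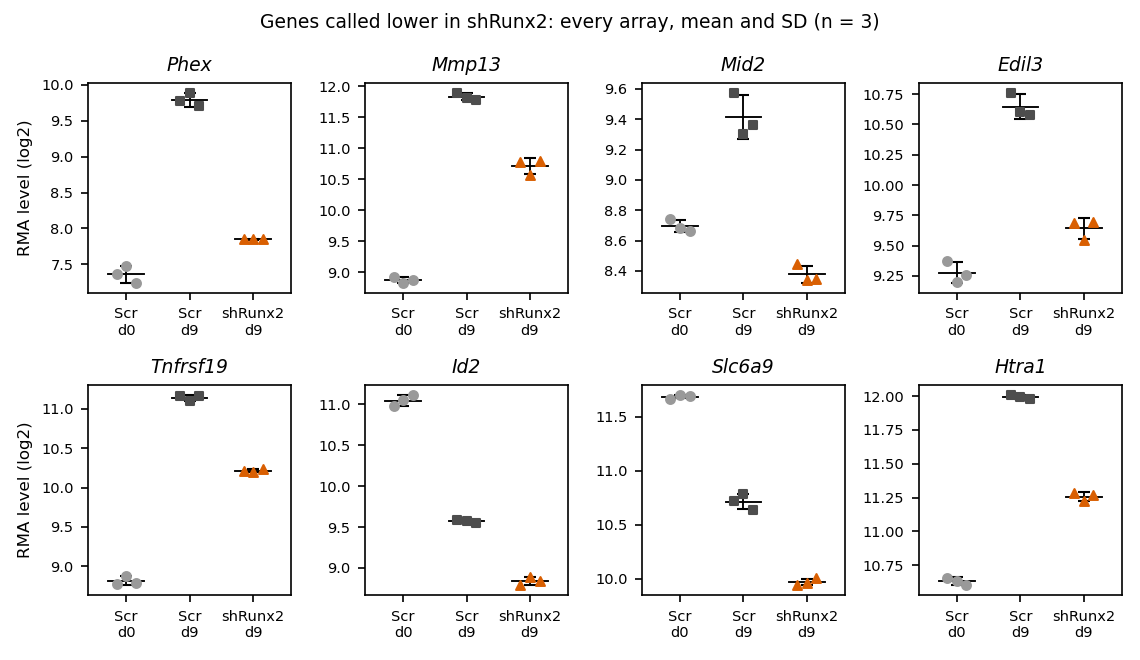
Each panel gives a gene called lower in shRunx2 cells (8 genes), with RMA log2 level on the vertical axis and the groups on the horizontal axis: Scr at day 0 (d0), Scr at day 9 (d9) and shRunx2 at day 9. Points are single arrays, and the lines mark mean and SD (n = 3). In each panel the shRunx2 arrays lie below all Scr arrays of day 9, and the day 0 level lies below both groups in some (Phex, Mmp13, Tnfrsf19, Htra1) and above both in others (Id2, Slc6a9).

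Several of the other decreases concerned secreted and surface proteins. Mmp13, collagenase 3, read 11.90, 11.81 and 11.78 in Scr and 10.78, 10.57 and 10.79 in shRunx2 cells (2.16-fold lower). Edil3, an integrin ligand of the matrix, read 10.76, 10.60 and 10.57 against 9.69, 9.54 and 9.69 (2.01-fold lower). Htra1, a secreted serine protease, read 12.01, 12.00 and 11.98 against 11.28, 11.22 and 11.27 (1.67-fold lower). These groups were separated by several times the spread within them. Tnfrsf19, a member of the tumor necrosis factor receptor superfamily, read 11.16, 11.09 and 11.16 against 10.21, 10.20 and 10.23 (1.90-fold lower). Cd200, a surface protein that restrains myeloid cells, read 9.35, 9.23 and 9.19 against 8.54, 8.54 and 8.51 (1.65-fold lower). F13a1, a subunit of the transglutaminase factor XIII, read 11.76, 11.70 and 11.74 against 10.96 on every shRunx2 array (1.70-fold lower), and at day 0 it read 7.81 to 8.03.

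Further decreases concerned proteins of several kinds. Mid2, a TRIM-family ubiquitin ligase that associates with microtubules, read 9.58, 9.30 and 9.36 in Scr and 8.44, 8.34 and 8.35 in shRunx2 cells, 2.05-fold lower and below its day 0 range of 8.66 to 8.74. Entpd7, an intracellular nucleotidase, read 10.18, 10.14 and 10.07 against 9.36, 9.37 and 9.46 (1.67-fold lower). Pdlim1, a LIM protein of actin stress fibres, read 11.89, 11.89 and 11.82 against 11.02, 11.03 and 11.09 (1.77-fold lower), and a further probe set of the gene gave a log2 change of -0.81. Adgrf5, an adhesion receptor, read 9.07, 9.02 and 8.86 against 8.16 on each shRunx2 array (1.78-fold lower). The remaining named decreases were the anion transporter Slc26a7 (1.65-fold), the synaptic adhesion protein Lrrtm2 (1.61-fold), the renin-binding protein Renbp (1.60-fold), the vitamin B12 carrier Tcn2 (1.58-fold), Lhfpl2 (1.57-fold), the tetraspanin Tspan5 (1.56-fold) and the RNA-binding protein Khsrp (1.55-fold). In all of them the groups did not overlap, as in all 39 genes called lower and in 15.3% of all genes downward.

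Signaling pathways changed in single members rather than as a whole. Among 36 genes of the BMP pathway, 3 rose and 4 fell, and both called members were Id genes, which encode helix-loop-helix proteins without a DNA-binding domain. Id2 read 9.59, 9.57 and 9.56 in Scr and 8.79, 8.89 and 8.84 in shRunx2 cells (1.67-fold lower), and Id3 9.17, 9.18 and 9.06 against 8.39, 8.54 and 8.09 (1.74-fold lower). Id4 moved the opposite way, from 11.53, 11.66 and 11.67 to 12.06, 12.04 and 12.04 (1.34-fold higher). The day 0 levels of all 3 were above both day 9 groups. The BMP antagonist Grem1 rose 1.22-fold. In the TGF-beta pathway, 3 of 26 rose and 3 fell (5 fell without replicate 3 of Scr), and none was called. The receptor Tgfbr1 (1.27-fold) and the feedback inhibitor Pmepa1 (1.29-fold) fell, while the matrix protein gene Ccn2 (1.26-fold) and the activin subunit Inhba (1.2-fold) rose.

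Of 55 Wnt genes 1 was called, the antagonist Dkk2, which read 8.81, 8.90 and 8.95 against 9.53, 9.61 and 9.56 (1.60-fold higher). The decoy receptors Sfrp1 (1.28-fold) and Sfrp2 (1.14-fold) rose too, and 5 genes of the list rose in all (3 without replicate 1 or 2 of Scr or replicate 1 or 3 of shRunx2). No gene was called in the hedgehog, Notch, FGF or PDGF, VEGF and angiopoietin lists. Within them, the growth factor Fgf18 (1.32-fold), the lymphatic growth factor Vegfd (1.39-fold) and the Notch transcription factor Rbpj (1.33-fold) rose, and the FGF inhibitor Spry1 (1.40-fold), the VEGF receptor Flt1 (1.16-fold) and the hedgehog inhibitor Sufu (1.17-fold) fell. In the IGF axis 2 of 19 genes rose (1 without replicate 2 or 3 of Scr or any single shRunx2 array) and 1 fell. The gene that fell was the protease gene Htra1, the 1 called member (1.67-fold lower). The binding protein gene Igfbp5 rose 1.33-fold, from 11.02 on each Scr array to 11.45, 11.38 and 11.46.

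In the tumor necrosis factor ligand and receptor superfamilies, 3 of 44 rose and 4 fell. Besides Tnfrsf19, the death receptor Tnfrsf21 (1.51-fold) and the decoy receptor Tnfrsf23 (1.17-fold) fell. Tnfsf10, the death ligand TRAIL, read 9.15, 9.14 and 9.00 in Scr and 9.67, 9.72 and 9.79 in shRunx2 cells (1.54-fold higher). Tnfrsf11b, osteoprotegerin, which blocks osteoclast formation by binding RANKL, read 10.23, 10.24 and 10.07 against 10.60, 10.63 and 10.63 (1.36-fold higher). RANKL itself, Tnfsf11, had a log2 change of 0.07 and did not pass. Among 62 guidance genes none was called. Sema3c rose 1.41-fold, and Sema7a (1.41-fold), Efna5 (1.24-fold) and Unc5b (1.25-fold) fell.

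Matrix genes outside the mineralizing set went both ways. Of 55 small leucine-rich proteoglycans and matrix glycoproteins 9 rose and 11 fell. The tenascins parted. Tnn, tenascin W, a tenascin of bone, read 10.14, 10.12 and 10.12 in Scr and 10.94, 10.96 and 10.88 in shRunx2 cells (1.74-fold higher), and Tnc, tenascin C, read 11.52, 11.42 and 11.35 against 10.92, 10.90 and 10.87 (1.45-fold lower). Sparcl1 (1.5-fold) and Ccn3 (1.31-fold) rose, and the basement membrane protein Nid1 fell 1.40-fold. Of 40 collagen chains 5 fell, among them Col15a1 (1.3-fold), Col3a1 (1.22-fold), Col5a2 (1.23-fold) and Col4a2 (1.13-fold). Of 28 genes for collagen modification and export 9 fell (5 without replicate 2 of Scr), among them the export coat protein Sec24d (1.23-fold), the chaperone Fkbp14 (1.25-fold) and the prolyl hydroxylase P4ha1 (1.21-fold). The crosslinking enzyme Lox read 12.06, 12.05 and 12.04 against 12.39 on each shRunx2 array (1.26-fold higher).

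Among 51 metalloproteinases and inhibitors 4 rose and 6 fell. Besides Mmp13 the decreases included Mmp16 (1.46-fold), Adamts12 (1.44-fold), the sheddase Adam17 (1.41-fold) and Adamts4 (1.37-fold), and Adamtsl1 rose 1.48-fold. Of 53 genes for glycosaminoglycan chains 9 fell and 2 rose. Hs3st3a1, a heparan sulfotransferase, read 8.39, 8.38 and 8.17 against 7.38, 7.47 and 7.64 (1.76-fold lower). The heparan epimerase Glce (1.42-fold), the dermatan sulfotransferase Ust (1.34-fold) and the sulfate donor synthase Papss2 (1.33-fold) fell, while its paralogue Papss1 (1.27-fold) and the hyaluronan synthase Has2 (1.3-fold) rose. Of 36 integrins and laminins 6 fell, with Itgb8 (1.34-fold) and Itgb3 (1.19-fold) among them, and Itga6 rose 1.32-fold. Cldn1, a tight junction protein, read 9.97, 10.04 and 10.02 in Scr and 10.82, 10.80 and 10.90 in shRunx2 cells (1.78-fold higher) and was the 1 called gene of 49 junction genes.

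**Figure D5:**
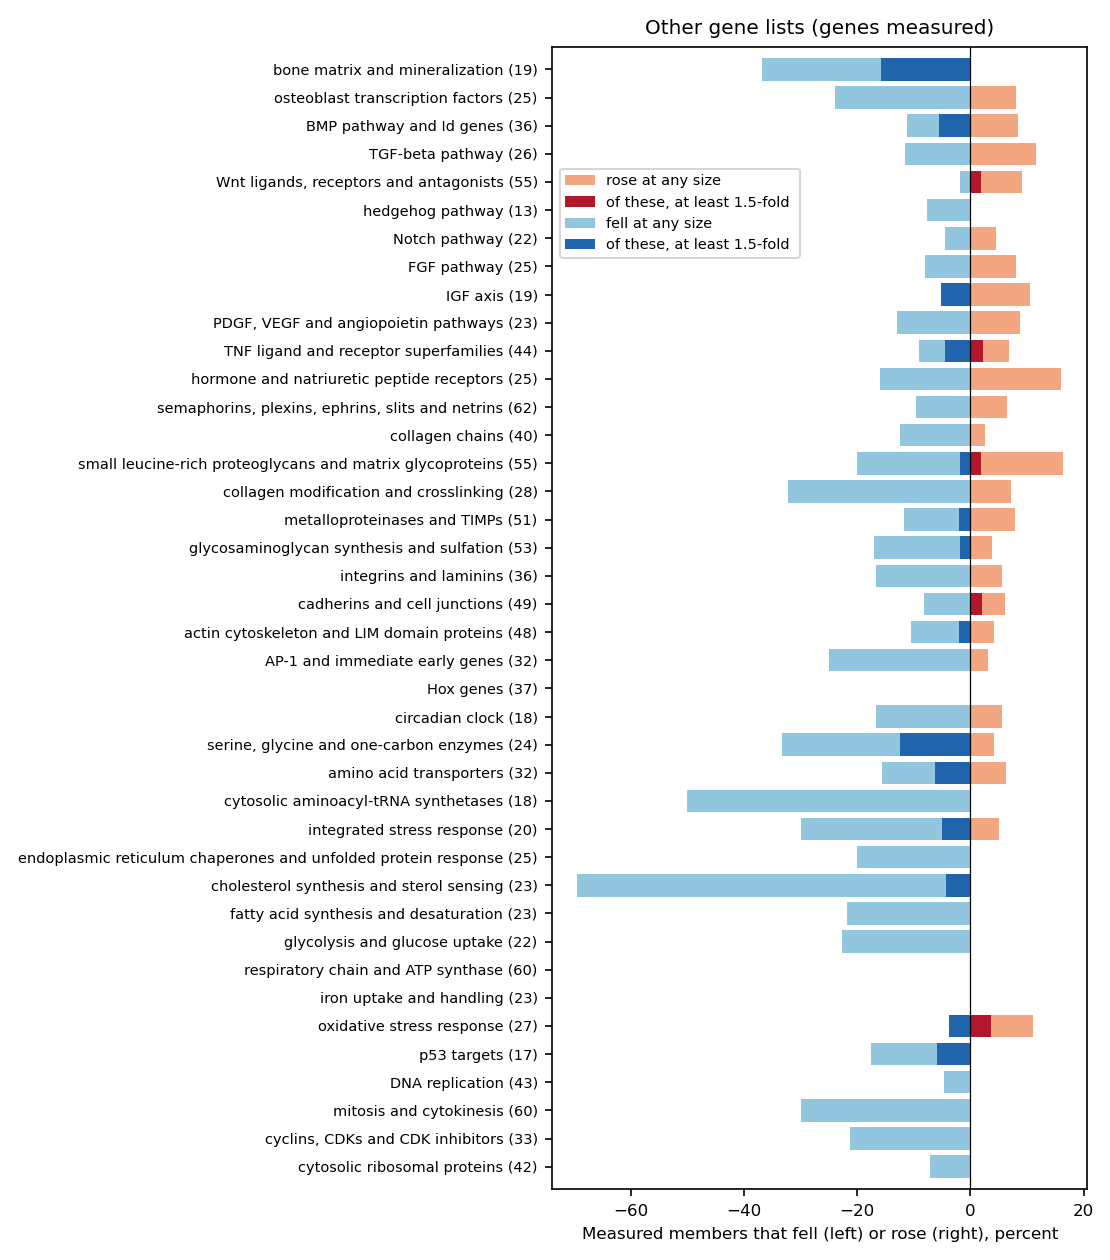
Percent of the measured members of each list (number in parentheses) that fell (to the left) or rose (to the right) in shRunx2 cells at day 9, with the share of at least 1.5-fold in the darker colour. Among the lists plotted, cholesterol synthesis and aminoacyl-tRNA synthetase genes have the largest shares that fell, 16 of 23 and 9 of 18 (4 of 18 without replicate 2 of Scr), all but Insig1 by less than 1.5-fold.

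Genes for amino acid metabolism and uptake were among those called lower in shRunx2 cells. In a list of 24 genes of serine, glycine and folate metabolism that also holds other amino acid enzymes, 8 fell and 1 rose, and 3 were called lower, of which 1, Aldh1l2, is a folate enzyme. Bcat1, which transaminates branched-chain amino acids, read 10.45 on each Scr array and 9.69, 9.72 and 9.66 in shRunx2 cells (1.69-fold lower). Aldh1l2, a mitochondrial folate enzyme, read 10.20, 10.25 and 10.05 against 9.30, 9.42 and 9.44 (1.72-fold lower), and asparagine synthetase, Asns, 12.40, 12.46 and 12.42 against 11.76, 11.84 and 11.73 (1.57-fold lower). Aldh1l1, a cytosolic folate enzyme, rose 1.29-fold. Among 32 amino acid transporters the glycine carrier Slc6a9, at 10.72, 10.78 and 10.64 against 9.94, 9.96 and 10.00 (1.68-fold lower), and the cystine carrier Slc7a11, at 7.96, 7.91 and 7.86 against 7.24, 7.17 and 7.25 (1.61-fold lower), were called. Slc7a5 fell 1.34-fold, and the taurine carrier Slc6a6 rose 1.28-fold. Of 18 cytosolic aminoacyl-tRNA synthetases 9 fell (4 without replicate 2 of Scr, 5 without replicate 3 of Scr or replicate 1 of shRunx2) and none rose. Yet 17 of the 18 had a log2 change below 0, with a median of -0.156, against 52.1% of all genes below 0. All 18 lay above the median level of all genes, and genes above that level had a median log2 change of -0.0339. Gars (1.21-fold) and Yars (1.2-fold) were among those that fell.

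Lower genes were also found in the stress response lists. Chac1, which degrades glutathione, read 10.53, 10.49 and 10.33 in Scr and 9.56, 9.70 and 9.71 in shRunx2 cells (1.73-fold lower). Gpt2 (1.33-fold) and Vldlr (1.33-fold) fell as well. Of the 20 genes of the integrated stress response 6 fell, 13 did not pass and 1 rose (none without any single day 9 array). Of the endoplasmic reticulum genes, Sel1l, part of the degradation machinery (1.46-fold), and Eif2ak3, which encodes the stress kinase PERK (1.34-fold), fell, but 20 of that list of 25 did not pass and 5 fell (3 without replicate 1 of Scr, 2 without replicate 2 of Scr or replicate 1 or 2 of shRunx2). Day 0 levels of Bcat1 (12.00 to 12.02), Asns (13.53 to 13.59), Slc6a9 (11.67 to 11.70) and Chac1 (11.83 to 11.85) were above both day 9 groups.

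Genes of cholesterol synthesis fell in small steps. Of 23 genes of cholesterol synthesis and sterol sensing 16 fell and none rose, 22 had a log2 change below 0, and the median was -0.195. Genes above the median level of all genes had a median of -0.0339. The count that fell was 10 without replicate 1 of Scr or replicate 2 of shRunx2, 9 without replicate 2 of Scr and 8 without replicate 1 of shRunx2. Insig1, which retains the sterol sensor in the endoplasmic reticulum, read 12.62, 12.67 and 12.59 in Scr and 11.91, 11.97 and 11.96 in shRunx2 cells, 1.60-fold lower and the 1 called member. The enzymes Msmo1 (1.24-fold), Hmgcs1 (1.25-fold), Sqle (1.21-fold) and Lss (1.21-fold) fell by less. In fatty acid synthesis 5 of 23 genes fell (3 without replicate 1 of Scr, 2 without replicate 2 of Scr or replicate 1 or 2 of shRunx2) and 18 did not pass. The citrate lyase Acly (1.2-fold) and the desaturase Scd1 (1.22-fold) were among them, and in glycolysis Pfkl (1.21-fold) and Eno2 (1.15-fold) fell. None of 60 respiratory chain genes and none of 23 genes of iron handling passed with all arrays, with log2 changes from -0.22 to 0.09 (49 of the 60 below 0) and -0.21 to 0.15. At an unadjusted p under 0.05 in limma, 4 of the first were lower, and of the second 1 was higher and 4 lower. Without 1 array (replicate 3 of day 0 for the first list, replicate 3 of Scr or replicate 2 of shRunx2 for the second) 1 or 2 of them fell.

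Small decreases were found among genes of cell division. Of 60 genes for mitosis and cytokinesis none was called, 18 fell (10 without replicate 1 of Scr, 9 without replicate 2 of Scr, 8 without replicate 1 of shRunx2), none rose, and 58 had a log2 change below 0, with a median of -0.133. The median over all genes above the median level was -0.0339. Cenpf (1.19-fold), Racgap1 (1.21-fold), Kif2c (1.2-fold) and the centromeric histone Cenpa (1.22-fold) had the smallest adjusted p values. Cyclin B2, Ccnb2 (1.21-fold), and the kinase Cdk6 (1.26-fold) fell as well. In DNA replication 41 of 43 genes did not pass and 2 fell, a share of 4.65% beside 4.66% of all genes. Without replicate 2 of Scr or replicate 1 of shRunx2 1 fell, and without replicate 2 of shRunx2 5 fell. Rrm1, a subunit of ribonucleotide reductase, fell 1.19-fold. The p53 target Sesn1, a sestrin, read 11.76, 11.75 and 11.76 in Scr and 11.17 on each shRunx2 array (1.51-fold lower), and Ccng1 fell 1.17-fold. Among immediate early genes Egr1 (1.41-fold), Egr2 (1.41-fold), Nr4a1 (1.3-fold) and Fos (1.24-fold) fell, with 8 of 32 lower in all (5 without replicate 2 of Scr or replicate 1 of shRunx2). The clock repressors Bhlhe40 (1.35-fold) and Bhlhe41 (1.33-fold) fell together. None of 37 Hox genes passed with all arrays, and 2 rose without replicate 1 of shRunx2. At an unadjusted p under 0.05 in limma 4 Hox genes were higher and 1 lower.

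Markers of cell types were used to check the label and the other cells a culture could hold. Of 8 measured osteoblast markers 5 fell, namely Phex, Ibsp, Alpl, Pth1r and Sp7, and all 8 had values below 0. Averaged over the 8, the log2 level was 10.67 to 10.74 on the Scr arrays and 10.13 to 10.14 on the shRunx2 arrays. The gap rests mostly on Phex, Ibsp and Alpl, the members called lower on these same arrays. The median log2 change of the 8 was -0.314, and Col1a1 and Col1a2 did not pass. None of 10 adipocyte, 14 skeletal muscle, 10 endothelial or 9 epithelial markers passed with all arrays (1 muscle marker rose without replicate 3 of Scr or replicate 2 of shRunx2). At an unadjusted p under 0.05 in limma 4 muscle markers and 1 epithelial marker were higher. The adipocyte regulators Pparg and Cebpa had log2 changes of -0.03 and 0.06, and the muscle regulators Myod1 and Myog 0.14 and 0.10. Sox9 was the 1 chondrocyte marker of 11 that rose (1.15-fold), and the cartilage genes Col2a1 and Acan, at -0.02 and -0.01, did not pass. Of 9 neural markers S100b rose (1.19-fold).

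Leukocytes also express interferon-stimulated genes and class II genes, so their markers are given beside those results. Averaged over 14 macrophage and leukocyte markers the level was 7.73 to 7.76 on the Scr arrays and 7.75 to 7.78 on the shRunx2 arrays. The defining genes Ptprc, Cd68, Adgre1, Csf1r and Itgam had log2 changes between -0.03 and 0.01, and none passed. Lyz2 rose (1.34-fold, adjusted p = 0.0125), a call that was lost without replicate 2 or 3 of Scr or of shRunx2 (adjusted p from 0.0532 to 0.0583), and Fcer1g fell (1.2-fold). Of 9 osteoclast markers Mmp9 had an adjusted p of 0.0447 (1.14-fold higher), which was lost without replicate 1 or 2 of day 0 (0.0592 and 0.0588), replicate 2 or 3 of Scr (0.169 and 0.125) or replicate 2 or 3 of shRunx2 (0.125 and 0.146), while Acp5, Ctsk and Dcstamp did not pass.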

How the data were processed

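The authors made labelled cDNA from RNA of MC3T3-E1 cells, hybridized it to Mouse Gene 1.0 ST arrays and deposited log2 expression values made by RMA. The submitters' processing notes name RMA and limma, and the study mentions a filter without describing it. The genome build of the probe annotation is not given in the sources used here.

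The table held 34760 probe sets. Genes were named from GEO's platform annotation, in which 21640 probe sets had 1 symbol, 1321 several and 11799 none. Those with 1 symbol were used, and where a gene had several (954 genes) the brightest by its mean over the 9 arrays was kept, which left 19937 genes. No further normalization or filter was applied. All 9 arrays entered 1 model of group means (lmFit and eBayes of limma 3.58.1, run in R 4.3.3, two-sided), from which shRunx2 day 9 minus Scr day 9 was taken, and the fit was first tested on simulated data. The SE is that of the model. Median polish in RMA gives some genes a single value on all arrays of a group (292 genes in Scr and 383 in shRunx2 at day 9, and 6 of the 118 called genes in either), so their own spread is 0 and the SE comes from the other arrays and genes. P values rest on the spread between cultures within the groups, pooled over all 9 arrays, day 0 included, and moderated by the spread of other genes.

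Of the gene identifiers 19855 were found in a RefSeq table (GRCm38.p6), which changed no symbol and gave promoters and gene order. Genes were named by rule: among called genes whose groups did not overlap, the 30 largest increases and 30 largest decreases, from each list the 4 members of lowest adjusted p, and all members of the interferon signal and marker lists. Adam17, Adamts4, Adar, Aoc3, Ap1s3, Atp1b1, Ccn3, Cd74, Cda, Cgas, Elp4, Gm12185, Gstt3, H2-Aa, Has2, Herc6, Irf2, Irf3, Irgm1, Khsrp, Lipg, Lss, Ly6f, Mavs, Met, Mustn1, Mx1, Nid1, Papss1, Parp14, Phf11a, Ramp2, Rerg, Rsad2, Scg2, Slfn10-ps, Slfn5, Thrb, Tnfrsf23, Tnfsf11 and Trim21 were named outside that rule, after their values were seen. The comparison, the members and the 62 gene lists were chosen with earlier results of these data known, so no list was tested as a set. Alternatives were leaving out each array, the replicate number as a block, the 6 day 9 arrays alone, other scalings, array weights, other eBayes priors, genes above the median level and every probe set. Runx2 and some other list members are not analysed here.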

Additional observations from a re-analysis of the deposited data

How the results depend on the processing

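There were 79 genes called higher and 39 called lower. Leaving out each array in turn gave 73 to 85 and 33 to 46, of which 73 to 79 and 33 to 39 were also called with all arrays. With every probe set tested singly 138 probe sets were called higher and 45 lower, since many probe sets share a gene or name none. At any size 544 rose (355 to 542 without 1 array) and 930 fell (503 to 960). They were 444 and 590 with every probe set, 917 and 1673 with array weights, 472 and 822 with the 6 day 9 arrays, 655 and 885 after quantile normalization, 428 and 1175 after centring on the median, and 514 and 1205 among genes above the median level, of which 54 and 29 were called. The cause was not tested. Deviations of same-numbered arrays from their group means had correlations of -0.037, 0.096 and -0.114, and those of differently numbered arrays ran from -0.077 to 0.115. The labels do not say whether the numbers pair the samples. A pairing with a small shared effect could give such values, so they cannot decide it. With a replicate block 543 rose, 907 fell, 80 were called higher and 39 lower. Of 213 named genes that passed, 207 kept their direction and an adjusted p under 0.05 in each of the 17 settings that held them, and 6 (Ifngr2, Jak1, Irf2, Irf3, Lyz2 and Mmp9) did not. The setting of genes above the median level did not hold 68 of the named genes. Of 99 named genes called at 1.5-fold, 12, Cxcl9 among them, went below that size in at least 1 setting, to 1.437-fold at the lowest. Of the 1474 genes that passed, 1455 changed by at least 1.1-fold. With only 3 arrays per group, changes smaller than that were thus mostly not resolved (median SE 0.0478 on the log2 scale).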

Other observations

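Probe sets outside the comparison behaved in a like direction. Of 11799 probe sets without a symbol 32 passed at 1.5-fold or more upward and 4 downward, and of 1321 with several symbols 23 passed upward and none downward. They were not assigned to genes, so it is not known how many repeat a gene already counted. Among further probe sets of genes with several, 5 passed upward and 2 downward. For the called genes with a further probe set, Pdlim1 gave log2 changes of -0.82 and -0.81 and Cacna2d1 -0.60 and -0.55, while that of Ak4 was -0.60 in the probe set used and -0.29 (adjusted p = 0.177) in the other. Cacna2d1 and Ak4 are named after their values were seen.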
